A study of Mus musculus with 6 samples.

Results

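Secretory granules are carried to the cell membrane and held there by a small set of proteins built around the GTPases Rab27a and Rab27b, and the transcripts of this set were followed in pancreatic islets with and without Tead1 in beta cells. The set held 10 genes, of which 9 were read by 20 probe sets among the 45037 tested in the series. All probe sets whose only platform gene symbol was 1 of the 10 were used, and Sytl5 had none. The genes were chosen by earlier results of these same arrays, in which Mlph, Sytl4 and Exph5 had lower signal in the knockout, and the others were added for their place beside Rab27. The Tead1KO and Flox difference of each member is for that reason given as a description, and its p-value supports nothing.

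Rab27 proteins sit on granules in their GTP-bound form and recruit effectors through a shared amino-terminal Rab-binding domain. Sytl4, also called granuphilin, ties insulin granules to syntaxin at the cell membrane, where they dock. Mlph, also called melanophilin, joins Rab27a to the actin motor Myo5a and is best known from the transport of pigment granules in melanocytes. Myrip links Rab27a to Myo5a and to other myosins, and Rph3al, also called Noc2, binds Rab27 and Rab3 and is needed for regulated secretion from endocrine cells. Exph5, also called Slac2-b, and Sytl2 are further Rab27 effectors.

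Islets came from 12-week-old male C57Bl6 mice. The control group, Flox, held 3 arrays of islets from flox mice, and the Tead1KO group held 3 arrays of islets from mice whose Tead1 gene, a DNA-binding factor of the Hippo pathway, was deleted in beta cells only. The labels name no Cre driver and do not say whether the Flox mice carried a Cre, so effects of Cre and of Tead1 loss cannot be told apart. Which animals each array came from is not in the labels, and where arrays of a group shared mice the p-values measure technical spread only. Signals are log2 values per probe set, and probe sets are not compared with each other in level. Probe sets for unspiked bacterial transcripts read 2.87 to 4.70, which is taken as the background. Each difference is that of Tead1KO from Flox (log2, negative where Tead1KO is lower), with the standard error (SE) of the limma fit over all 45037 probe sets. A probe set was called when its Benjamini-Hochberg adjusted p was under 0.05.

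The targeted gene Tead1 did not separate the groups at its probe sets, whose place in the gene was not known here, so it does not check the labels. It read 7.22, 6.99 and 7.40 in Flox and 6.72, 7.49 and 5.95 in Tead1KO at the brighter probe set. Tead1KO replicate 3 stood apart from the other arrays. Its hybridization controls (transcripts added to every sample, here called the control signal) read 13.2 against 10.6 to 12.1 elsewhere. Its mean correlation with the others was 0.969 against 0.984 to 0.986. Of the beta cell markers, Ins2 was near saturation (15.7 in Flox and in Tead1KO), while Ucn3 (-0.95), Slc2a2 (-0.82) and Nkx6-1 (-0.95) had lower signal in every Tead1KO array than in any Flox array without being called. The mean over the 4 measured beta cell markers spanned 13.2 to 13.4 in Flox and 12.4 to 12.8 in Tead1KO. In whole islets, fewer beta cells and less RNA per beta cell cannot be told apart. The means over 3 acinar markers were 12.1, 14.1 and 14.4 in Flox replicates 1 to 3. In Tead1KO replicates 1 to 3 they were 12.3, 14.3 and 13.5, so replicate 1 was lowest in both groups. The means over the 4 duct markers spanned 6.78 to 7.28 in Flox and 6.79 to 7.16 in Tead1KO. Of the 4 melanocyte markers, Mlana lay within background on every array, Tyr lay above it on 3 arrays, and Dct (8.38 in Flox, 8.45 in Tead1KO) and Pmel (5.56 and 5.55) were above it in both groups. The melanocyte means spanned 5.62 to 5.80 in Flox and 5.68 to 5.92 in Tead1KO. For markers of alpha, delta, pancreatic polypeptide, endothelial, stromal and immune cells, the median differences lay between -0.08 and 0.16, and 0 of these genes were called. The part of these cell types in the members' differences was not tested. That of array quality was examined only by the fits below with 1 array left out or with the control signal in the model.

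Of the 20 member probe sets, 1 was called lower, where 0.0488% of all probe sets were, and 0 were called higher, where 0.131% were. At an unadjusted p under 0.05 there were 6, where 5.18% of all probe sets were. In 4 member probe sets all Tead1KO arrays lay below all Flox arrays, which held for 5.16% of all probe sets, and in 3 they lay above, which held for 5.36%. The rule used this contrast, so nothing is read from these counts. Of the 20 probe sets, 17 had at least 1 group mean above background. The called probe set was that of Mlph, and Sytl4 had the next largest difference.

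**Figure D1:**
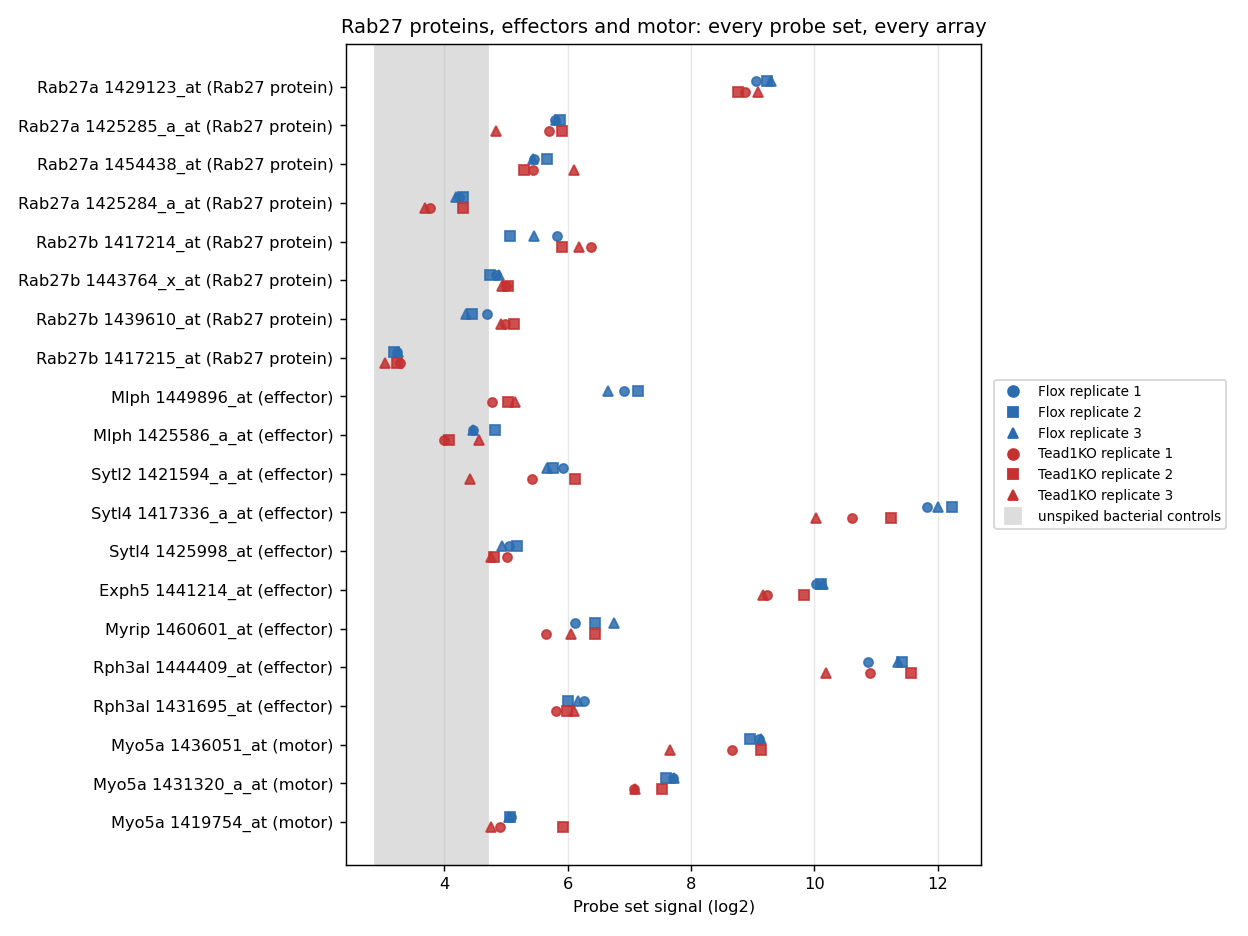
Signal (log2, x axis) of all 20 probe sets of the 9 measured genes (y axis), 1 point per array, with blue for Flox, red for Tead1KO, symbols for replicates and the grey band for unspiked bacterial controls (2.87 to 4.70). The groups are separate at Mlph 1449896_at, Sytl4 1417336_a_at, Exph5 1441214_at and Myo5a 1431320_a_at, with Tead1KO lower, and at 3 Rab27b probe sets, with Tead1KO higher.

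Among the effectors, Mlph, the adaptor to Myo5a, differed most. Its brighter probe set, 1449896_at, read 6.91, 7.14 and 6.64 in Flox replicates 1 to 3 and 4.77, 5.03 and 5.14 in Tead1KO replicates 1 to 3. The groups were separated by more than the range within either, and the Tead1KO values lay just above background. Mlph fell by 1.92 (SE 0.19, limma adjusted p = 0.0139), from 6.90 ± 0.25 to 4.98 ± 0.19 (SD, n = 3 each), which is 3.78-fold lower. The call was lost without Flox replicate 1, 2 or 3 or Tead1KO replicate 1 (limma adjusted p = 0.119, 0.110, 0.0718 and 0.139), while the difference stayed between -2.04 and -1.79 over all single omissions. It was as large without Tead1KO replicate 3 (-1.99) and with the control signal in the model (-1.97). The other Mlph probe set, 1425586_a_at, read 4.46, 4.82 and 4.46 in Flox and 3.99, 4.07 and 4.56 in Tead1KO, and only 1 of its 6 values lay above background. The mean of both Mlph probe sets differed by -1.15 and was called (limma adjusted p = 0.0392 over genes).

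Sytl4, the granuphilin gene, had a bright probe set, 1417336_a_at, that read 11.82, 12.24 and 12.00 in Flox and 10.61, 11.24 and 10.02 in Tead1KO. All Tead1KO arrays lay below all Flox arrays, with Tead1KO replicate 2 nearest to them and replicate 3 farthest. The difference was -1.40 (SE 0.29), from 12.02 ± 0.21 to 10.62 ± 0.61 (SD, n = 3 each), and was not called (limma adjusted p = 0.218). It was called with quantile normalization (-1.27, limma adjusted p = 0.0415), with the control signal in the model (-0.99, limma adjusted p = 0.0163) and without Tead1KO replicate 2 (-1.70, limma adjusted p = 0.0242). The range of its adjusted p over all alternatives was 0.0163 to 0.9999. The other Sytl4 probe set, 1425998_at, lay close to background at 5.05 ± 0.12 in Flox and 4.85 ± 0.14 in Tead1KO, and its groups overlapped. The mean of both Sytl4 probe sets differed by -0.80.

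Exph5 was read by 1441214_at at 10.02, 10.11 and 10.14 in Flox, a spread of 0.06 (SD), and at 9.22, 9.83 and 9.16 in Tead1KO. Again each Tead1KO array lay below each Flox array, and replicate 2 lay nearest. The difference was -0.68 (SE 0.20) and was not called. It was -0.56 without Tead1KO replicate 3, -0.90 without Tead1KO replicate 2 and -0.47 with the control signal in the model.

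The other measured effectors had overlapping groups. Sytl2, a synaptotagmin-like protein that binds membrane lipids, read 5.92, 5.76 and 5.66 in Flox and 5.43, 6.12 and 4.42 in Tead1KO. Its difference of -0.46 came to -0.0097 without Tead1KO replicate 3, the array that was lowest, to -0.0048 with the control signal in the model, and to -0.86 without Tead1KO replicate 2. Rph3al, the Noc2 gene, read 10.87, 11.41 and 11.35 in Flox and 10.90, 11.57 and 10.19 in Tead1KO at its brighter probe set. Here too the lowest value was that of Tead1KO replicate 3, and the difference of -0.33 turned to 0.0248 without it and to 0.17 with the control signal in the model, and was -0.67 without Tead1KO replicate 2 and -0.50 without Flox replicate 1. Its dimmer probe set differed by -0.18. Myrip, which links granules to actin, read 6.12, 6.45 and 6.75 in Flox and 5.65, 6.44 and 6.06 in Tead1KO, a difference of -0.39 within the overlap of the groups. It was -0.19 without Tead1KO replicate 1, -0.24 without Flox replicate 3, -0.59 without Tead1KO replicate 2 and -0.18 with the control signal in the model.

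The region just before the gene start is shown for the 3 effectors whose Tead1KO and Flox arrays did not overlap, from RefSeq (GRCm38.p6), 250 bases each, 5′ to 3′ on the strand of the gene. Capitals mark the letters of the TEAD core, GGAATG or its reverse complement CATTCC, and of a forkhead core, TGTTTAC or GTAAACA, both searched on both strands from 250 bases before to 50 after the start.
Sytl4, chrX:133981813-133982062, minus strand: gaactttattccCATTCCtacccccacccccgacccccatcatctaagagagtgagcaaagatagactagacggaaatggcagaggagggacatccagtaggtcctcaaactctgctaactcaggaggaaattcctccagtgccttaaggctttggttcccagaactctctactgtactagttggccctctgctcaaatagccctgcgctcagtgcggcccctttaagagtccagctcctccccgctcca
Mlph, chr1:90914850-90915099, plus strand: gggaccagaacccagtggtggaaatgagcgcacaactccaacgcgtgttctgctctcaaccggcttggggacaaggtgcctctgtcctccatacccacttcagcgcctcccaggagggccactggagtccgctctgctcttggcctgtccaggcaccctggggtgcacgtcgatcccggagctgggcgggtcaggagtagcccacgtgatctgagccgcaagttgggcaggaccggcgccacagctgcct
Exph5, chr9:53301420-53301669, plus strand: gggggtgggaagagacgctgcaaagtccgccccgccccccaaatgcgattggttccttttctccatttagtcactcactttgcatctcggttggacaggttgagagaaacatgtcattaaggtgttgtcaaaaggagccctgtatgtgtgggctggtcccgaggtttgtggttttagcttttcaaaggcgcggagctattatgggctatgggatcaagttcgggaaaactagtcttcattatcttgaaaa

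In these windows a TEAD core stood only before Sytl4, beginning at position -238 from the start and reading CATTCC on the strand of the gene, with GGAATG on the opposite strand. Of all 32851 RefSeq promoters of the same length, 14.7% held this core and 3.65% held the forkhead core. Promoter entries were found for 8 of the 10 genes, 9 entries in all, and Sytl4 held the 1 match among them. A match is a run of letters, not a binding site, and these arrays measured no binding.

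The motor gene Myo5a, a myosin that walks along actin filaments, had 3 probe sets that did not all point the same way. At 1436051_at it read 9.10, 8.96 and 9.13 in Flox and 8.66, 9.14 and 7.65 in Tead1KO. The difference of -0.58 (SE 0.34) was -0.16 without Tead1KO replicate 3, -0.91 without Tead1KO replicate 2, -0.15 with the control signal in the model and -0.30 for the mean of the 3 probe sets. Tead1KO replicate 2 lay above every Flox array. At 1431320_a_at the arrays read 7.71, 7.58 and 7.72 in Flox and 7.07, 7.53 and 7.09 in Tead1KO, without overlap, a difference of -0.44 (SE 0.18) that was not called. The third probe set, 1419754_at, differed by 0.13, with Tead1KO replicate 2 at 5.92 and the other 5 arrays between 4.75 and 5.09.

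The Rab27 genes themselves are described beside their effectors, with no test between them. Rab27a, the form that holds insulin granules in beta cells, read 9.05, 9.22 and 9.30 in Flox and 8.87, 8.75 and 9.09 in Tead1KO at its brightest probe set, 1429123_at. The groups overlapped by 1 array, Tead1KO replicate 3, and the difference was -0.29 (SE 0.17), or -0.15 with quantile normalization. Its other probe sets differed by -0.35, 0.10 and -0.33, each with overlapping groups, and the last of these lay within background throughout.

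Rab27b, the closely related second form, had higher values in Tead1KO. Its brightest probe set, 1417214_at, read 5.82, 5.07 and 5.45 in Flox and 6.38, 5.90 and 6.19 in Tead1KO, so every Tead1KO array lay above every Flox array. The difference was 0.71 (SE 0.23) and was not called (limma adjusted p = 0.702, range 0.137 to 0.9999 over the alternatives). At 1439610_at it read 4.68, 4.45 and 4.36 in Flox, all within background, and 4.98, 5.12 and 4.92 in Tead1KO. At 1443764_x_at the groups were also separate, by 0.17 in the mean, and at 1417215_at all arrays lay within background. The mean of the 4 Rab27b probe sets differed by 0.34.

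**Figure D2:**
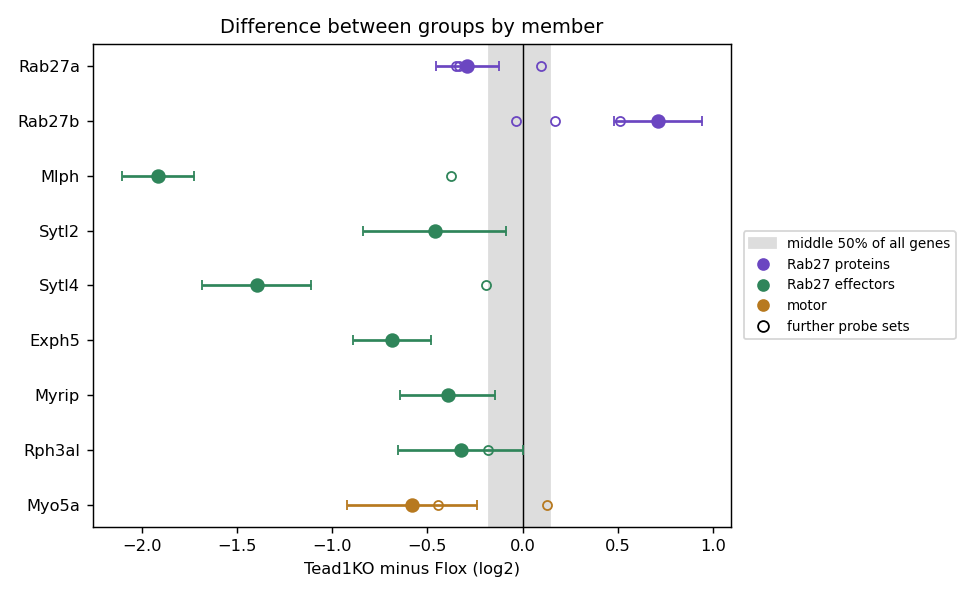
Tead1KO minus Flox (log2, x axis) for the 9 measured genes (y axis), where filled points are the brightest probe set of a gene with its SE, open points are further probe sets, colours give the role, and the grey band holds the middle 50% of all 18193 genes (-0.18 to 0.15). The 6 effectors, Myo5a and Rab27a (-0.29) lie to the left of 0 at their brightest probe sets, Mlph farthest at -1.92, and Rab27b lies to the right at 0.71.

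By role, the 6 measured effectors among the members all had differences below 0 at their brightest probe sets, although Rph3al lay above 0 in the fits named above. The differences ran from -1.92 to -0.33 with a median of -0.57. Mlph, Sytl4 and Exph5 were chosen for lower signal in these arrays, so nothing is read from this count or median. Sytl2, Myrip and Rph3al, added for their place beside Rab27, lay at -0.46, -0.39 and -0.33 with overlapping groups. Further Rab27 effectors outside the member set did not share 1 direction, with Sytl1 at -0.58, Rph3a at 0.41 and Unc13d at 0.08. The median over the 2 Rab27 genes was 0.21 (-0.29 and 0.71), and the motor lay at -0.58. The median over the brightest probe set of all 18193 genes was -0.0074, and 51.1% of them lay below 0. The effector median was -0.48 without Tead1KO replicate 3, -0.88 without Tead1KO replicate 2, -0.55 with quantile normalization and -0.32 with the control signal in the model.

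Within the Tead1KO group the members varied from array to array. Relative to the Flox mean, the median over the 6 effectors was -0.83, -0.13 and -1.19 in Tead1KO replicates 1 to 3. It was -0.13, 0.11 and 0.015 in Flox replicates 1 to 3, so Tead1KO replicate 2 lay within the Flox range. The hybridization controls were 12.1, 10.9 and 13.2 in Tead1KO replicates 1 to 3, so within this group the effector median was lower where the controls were higher. In Flox replicates 1 to 3 the controls were 11.9, 11.0 and 10.6. Flox replicate 1, at 11.9, had the lowest effector median of the Flox arrays (-0.13), and Tead1KO replicate 1, at 12.1, had -0.83. No cause is read from these single arrays. The mean of Ucn3, Slc2a2 and Nkx6-1, the 3 beta cell markers below saturation, was also taken relative to Flox. It was -0.95, -0.63 and -1.14 in Tead1KO replicates 1 to 3, which is also the order of the effector median. The cause of this order was not tested. Mlph did not follow this order, with -2.12, -1.87 and -1.76, and neither did Rab27b, with 0.94, 0.46 and 0.74. In Tead1KO replicate 2, where 4 of the 6 effectors lay below the Flox mean, Sytl2 and Rph3al lay above it by 0.33 and 0.36, while Mlph and Sytl4 were lower by -1.87 and -0.78.

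**Figure D3:**
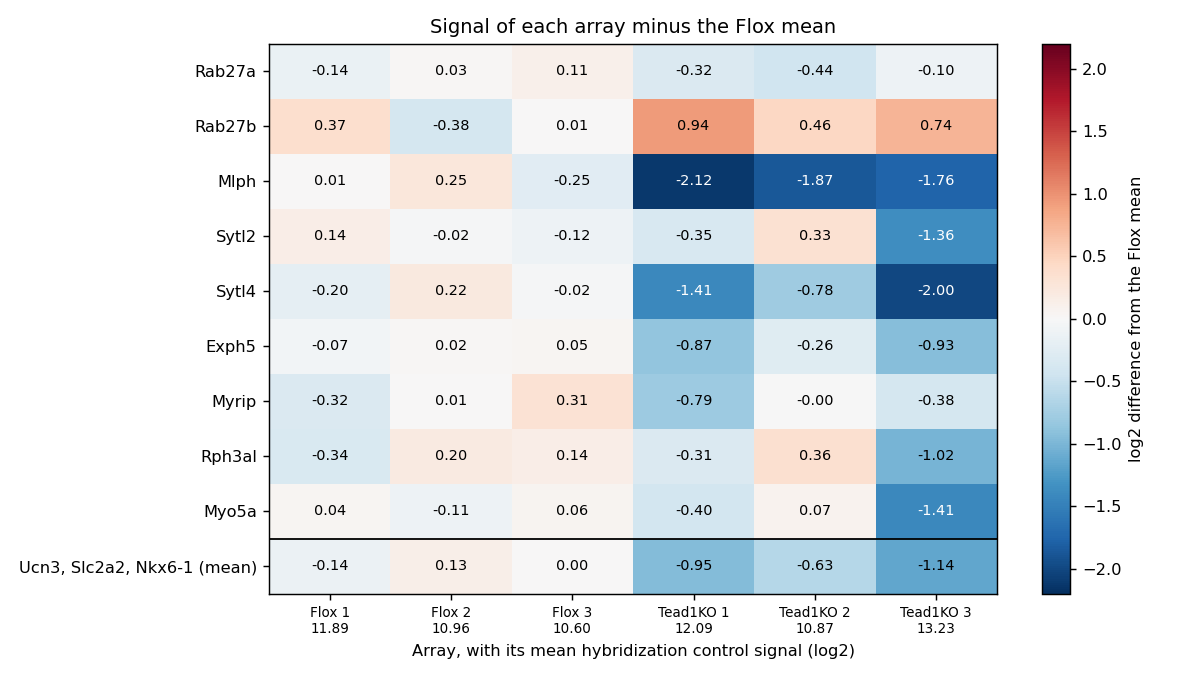
Each cell gives the log2 signal of 1 array (columns, with the mean log2 signal of its hybridization controls) minus the Flox mean of the same probe set, for the brightest probe set of each measured gene (rows) and, in the last row, for the mean of 3 beta cell markers. Mlph is low in all 3 Tead1KO arrays (-2.12 to -1.76), while Sytl2, Rph3al and Myo5a are lowest in Tead1KO replicate 3.

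Genes that act beside Rab27 were counted at the brightest probe set of each, in 5 lists. Over all 142 probe sets of these genes, 0 were called by limma, where 0.0488% of all probe sets were called lower and 0.131% higher. An unadjusted p under 0.05 was reached by 5.18% of all probe sets. Beside these shares, nothing is read from the counts of the lists below. Of 9 genes that load, unload, lipidate or bind Rab27 itself, 0 were called by limma and 1 had an unadjusted p under 0.05. This was Chml, a Rab escort protein, which differed by -0.60, and its relative Chm differed by -0.45 and Gdi2, which extracts Rabs from membranes, by -0.25. The list's median was -0.11. Of 3 other Rab27 effectors, 0 were called and 0 had an unadjusted p under 0.05, with Sytl1 at -0.58, Rph3a at 0.41 and Unc13d, a priming factor of cytotoxic granules, at 0.08.

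Of 11 other Rab GTPases found on granules or melanosomes, 0 were called and 2 had an unadjusted p under 0.05. Rab37 differed by -0.96 (SE 0.30), from 8.72 ± 0.52 to 7.76 ± 0.38 (SD, n = 3 each), with overlapping groups. Its other probe set read 7.81, 7.99 and 7.94 in Flox and 7.24, 7.27 and 6.52 in Tead1KO, without overlap, and differed by -0.90 (SE 0.23) without being called. Rab3b differed by -0.73 (SE 0.20), with every Tead1KO array below every Flox array, and Rab3c by 0.38. Rab3a, the main Rab3 of insulin granules, differed by -0.24, and the list's median was -0.09.

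Of 19 measured docking and fusion partners, 0 were called and 0 reached an unadjusted p under 0.05. Their median was -0.10. Unc13b, a priming protein, differed by -0.41, Snap23, a membrane SNARE, by -0.64 and Rims2, a scaffold that binds Rab3, by -0.43. Stx1a, the syntaxin that granuphilin binds, differed by -0.09 (SE 0.18). Of 13 motors and actin genes, 0 were called and 3 had an unadjusted p under 0.05. Among these, Myo6, a myosin that moves toward the minus end of actin, differed by -0.46, and Dynll2, a light chain of Myo5a, by -0.48. Myo5c, a further class V myosin, differed by 0.43 with both group means within background. The list's median was -0.09.

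**Figure D4:**
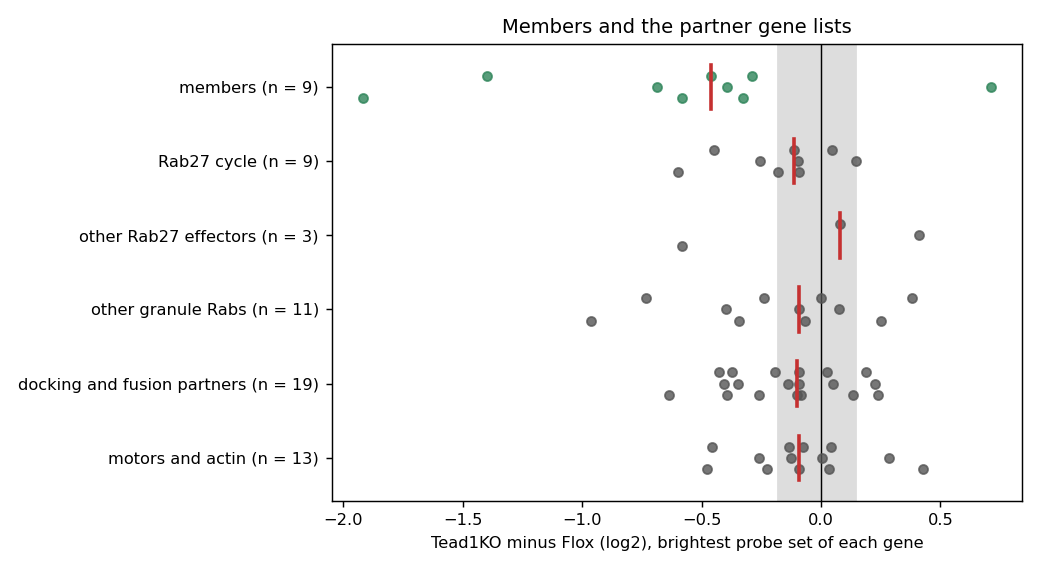
Tead1KO minus Flox (log2, x axis) at the brightest probe set of each gene for the members (green) and the 5 partner lists (grey points), with the median of each as a red line and the middle 50% of all 18193 genes as a grey band (-0.18 to 0.15). The medians of the partner lists lie between -0.11 and 0.08, and that of the 9 members at -0.46. Mlph, Sytl4 and Exph5 were chosen for lower signal in these arrays, so nothing is read from the members' median beside those of the lists.

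The genes whose signals ran most alike over the 6 arrays were taken from 4770 genes of sufficient signal and spread, as a description, since the points share the arrays and the group difference. For Mlph these were Galnt9, Pcsk1, Pla2g2d, Col6a3 and Plut (Pearson r from 0.987 to 0.997). For Sytl4 they were Fkbp1b, Mns1, Pacc1, Prr15l and Cdc14b (r from 0.997 to 0.999). Among them Pcsk1, a prohormone convertase of the granule, differed by -0.63, and Fkbp1b, which binds calcium release channels, by -1.86.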

How the data were processed

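Islet RNA of 3 Flox and 3 Tead1KO samples was read on 1 array each. The authors deposited 1 log2 signal per probe set. The submitters' processing notes name Affymetrix Expression Console, and its version, background correction and normalization are not given in the sources used. Values spanned 2.75 to 15.7 and were used as deposited, without a filter. Of 45101 probe sets, 64 controls were left out. In the platform annotation 34945 carried 1 gene symbol, 932 several, and 9160 were unnamed here. The groups were fitted with limma 3.58.1 (lmFit, eBayes with trend) in R 4.3.3 without covariates, and p-values were adjusted by Benjamini-Hochberg over 45037 probe sets. The procedure was checked on simulated data. For arrays, their number limits the precision. Named were all members, the 3 genes with the smallest p in each partner list, the 5 genes most correlated with Mlph and with Sytl4 above the median signal (5.24) with an SD of at least 0.3, the cell type markers and Tead1, while Rab3a and Stx1a were named after their values were seen. The members and lists were chosen with earlier results of these data known. The 17 alternatives were the omission of each array in turn, median centring or quantile normalization, a robust variance prior, a fit without variance trend, omission of dim probe sets or of those ending in _x_at or _s_at, 1 probe set or the mean of all probe sets per gene, the replicate number as a block, the hybridization control signal as a covariate, and a threshold of 0.10. Upstream sequences were taken from RefSeq (GRCm38.p6).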

Additional observations from a re-analysis of the deposited data

How the results depend on the processing

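Of all 45037 probe sets, 81 were called. Quantile normalization gave 143, median centring 42, and there were 268 with the control signal in the model, 143 at an adjusted p under 0.10, and 4 to 239 with 1 array left out. The member probe sets called lower numbered 2 with quantile normalization and 2 with the control signal in the model (Mlph and Sytl4 each time), and 0 to 2 with 1 array left out. No member probe set was called higher and no partner gene was called under any of the 17 alternatives. Each partner gene was counted at its brightest probe set, or where a fit left that out, at the brightest remaining. The fit on means used the mean of its probe sets, and genes with no probe set left in a fit were not counted. Rph3al turned from -0.33 to 0.17 with the control signal in the model and to 0.0248 without Tead1KO replicate 3 (range -0.67 to 0.0248 with 1 array left out), and the cause was not tested. The fits without dim probe sets, without _x_at and _s_at probe sets, without a variance trend, with a robust prior and with 1 value per gene each called Mlph as the only member, and the mean of a gene's probe sets lowered the Rab27 median to 0.06. The effector median stayed between -0.88 and -0.32, and the Rab27 median between 0.06 and 0.31. Replicate numbers were not shown to pair the arrays, since deviations of same-numbered arrays correlated at 0.06, 0.35 and -0.20. The acinar means were nonetheless lowest in replicate 1 of both groups. With the replicate block, 96 probe sets were called, among the members Mlph again (adjusted p = 0.0130 by limma) and no other. Sytl4 came to an adjusted p of 0.0591 by limma in that fit. With 3 arrays per group, a difference of a member that was not called is not shown to be absent.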
